A study of Sus scrofa domesticus with 12 samples.

Results

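The muscle under study was the peroneus tertius of young adult female Yorkshire Cross pigs after volumetric muscle loss (VML), an injury in which a block of muscle is cut out, and the comparison is between limbs repaired with a hyaluronic acid hydrogel (Hya-repaired, labelled HA) and sham-operated limbs. The Hya-repaired limbs were the left limb of pig 016 and the right limb of pig 017, and the sham-operated limbs were the left limbs of pigs 025 and 026, so that there were 2 limbs a side, each from another pig. In the Hya-repaired limbs a piece of muscle was excised and the gel was placed in the defect, whereas in the sham-operated limbs the muscle was exposed and no tissue was removed. No limb analysed here received gel without injury, so an effect of the gel and an effect of the injury cannot be told apart in this comparison. The tissue was taken 12 weeks after surgery, although the labels speak of a time course. Pig 017 also gave a non-repaired limb, in which the same injury was left without a filler. The whole series holds 12 libraries from 11 pigs, the others being 1 more non-repaired limb and 6 limbs repaired with an extracellular matrix (ECM) sheet. The labels name the same sheet, small intestine submucosa (SIS), for every ECM-repaired limb. The paper, however, describes limbs sequenced after repair with SIS and others after repair with urinary bladder matrix. The labels do not resolve this conflict, so the ECM-repaired limbs are treated here as a single group that may mix both sheets. Of 11506 gene names in the deposited table, the 8420 with at least 1 TPM (transcripts scaled to a fixed total per library) in both limbs of either group were compared. Of these, 893 passed through the Hya-repaired limbs alone and 286 through the sham-operated limbs alone.

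Hyaluronan is a long sugar chain of the extracellular matrix that cells make at their surface with hyaluronan synthases, hold through receptors such as CD44 and LYVE1, organise with proteoglycans such as versican and aggrecan, and break down with hyaluronidases and lysosomal enzymes. The gel was used in the study as a filler that lacks the cell-binding motifs of an ECM sheet. Skeletal muscle is built of fast-twitch fibers, which draw much of their energy from glycolysis, and of slow-twitch fibers, which are rich in mitochondria. When a large volume of muscle is lost, the defect commonly fills with a collagen-rich scar that holds fibroblasts and macrophages.

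TPM give each gene as a share of its own library, so a loss of the most abundant genes raises all the others. The 50 genes with the highest level in sham muscle took 57.2 and 51.7% of TPM assigned to named genes in the sham-operated limbs, 9.14% in pig 016 after Hya repair and 31.5% in pig 017. Each count is therefore given for the values as deposited and for values rescaled by a factor per library from trimmed means of log ratios. Differences are on the log2(TPM + 0.5) scale, which understates changes of genes with low TPM. The depth of each library is unknown from TPM, and the number of limbs sets the precision. P-values rest on the spread within all groups of the series, of which the ECM-repaired group has the most limbs. With 2 limbs against 2, an exact two-sided permutation test of a single value cannot go below p = 0.333, so tests rest on limma across all genes, which borrows the spread of all 12 libraries. In whole tissue, fewer cells of a type and less RNA per cell cannot be told apart.

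In the Hya-repaired limbs, 27 of 29 tested genes of collagen fibrils and 19 of 20 macrophage markers were called higher than in sham muscle. Of the genes of the muscle fiber, 9 of 17 fast-twitch genes were called lower, 0 of 17 without the limb of pig 016, and 0 of 11 slow-twitch genes were called. As deposited, limma called 2950 genes higher, or 35.0% of those tested, and 356 lower, or 4.23%, at an adjusted p under 0.05. After rescaling it called 2056 higher (24.4%) and 1618 lower (19.2%). The median difference over all genes was 0.60 as deposited and 0.04 after rescaling, so the values as deposited carry an upward shift of this size. All 356 genes called lower as deposited were also called lower after rescaling, and 2053 of the 2950 called higher were also called higher. Each limb was also left out in turn. Its group then has 1 limb and adds no spread to the test, so the test changes as well. The count of lower genes fell or rose with the limb left out. Without the Hya-repaired limb of pig 016 it was 13, without the limb of pig 017 it was 785, and without the sham limb of pig 025 or 026 it was 30 or 91. The count of higher genes was 1287 without the limb of pig 016 and 1443 without the sham limb of pig 025.

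Each Hya-repaired limb was then set against the 2 sham limbs on its own, with the assumption that a lone limb varies as the other groups do. The Hya-repaired limbs differed at least 2-fold in 1991 genes, against 588 in the sham pair and 303 in the non-repaired pair. This spread does not enter the single-limb fits, so their counts do not compare directly with the group's. Leaving 1 Hya-repaired limb out of the group gives nearly the same test as these fits, not a separate check. Limma called 3413 genes higher (40.5%) and 784 lower (9.31%) in pig 016 as deposited, and 2221 higher (26.4%) and 1978 lower (23.5%) after rescaling. For pig 017 it called 1289 higher (15.3%) and 12 lower (0.143%) as deposited, and 940 higher (11.2%) and 249 lower (2.96%) after rescaling. These comparisons share the sham limbs. Among the 12 genes called lower in pig 017 was TEAD1, a transcription factor of the Hippo pathway, chosen here after its values were seen, with 2.93 and 8.94 TPM in the Hya-repaired limbs of pigs 016 and 017 against 35.4 and 39.9 TPM in the sham limbs. Unless a pig is named, TPM are given in this order, pig 016, pig 017, and against them sham pigs 025 and 026. PPIB was the 1 gene called in opposite directions in the limbs. Among the 2950 genes called higher in the group, 2889 had the higher level in pig 016, and among the 356 called lower, 346 had the lower level in pig 016.

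**Figure D1:**
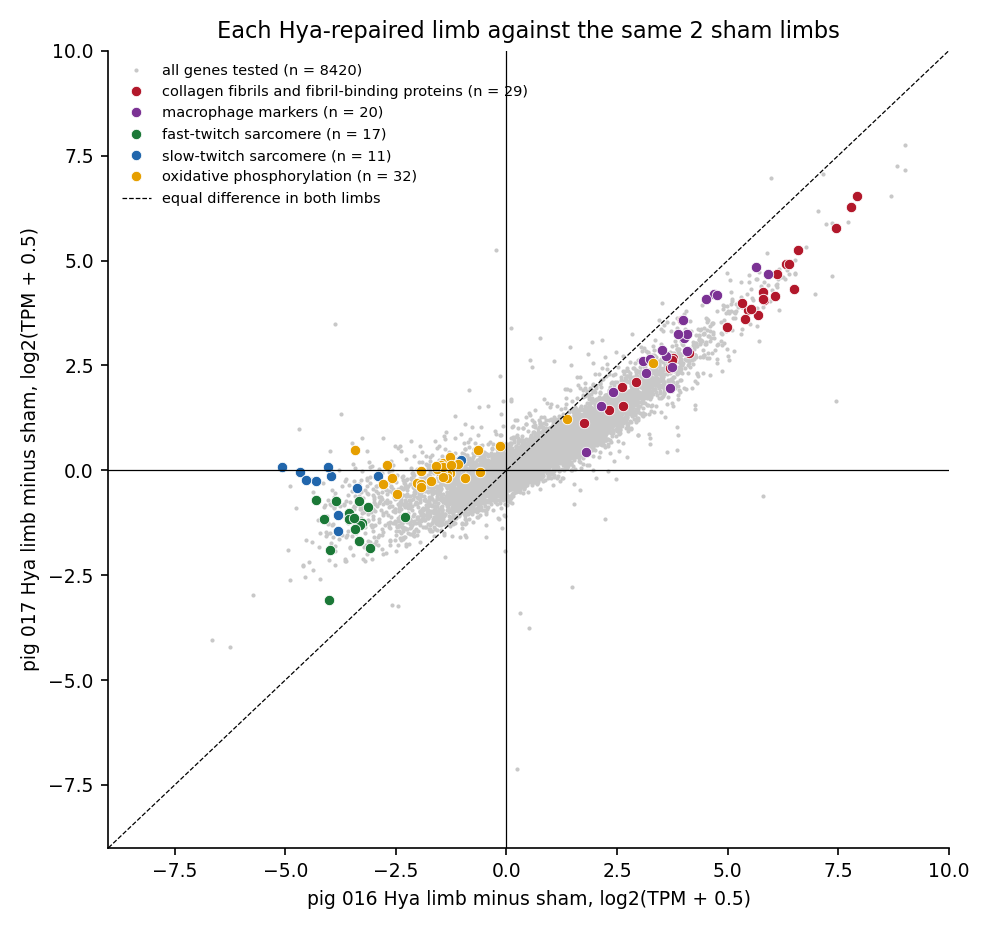
Difference of each Hya-repaired limb from the mean of the 2 sham-operated limbs on the log2(TPM + 0.5) scale, with the limb of pig 016 on the horizontal and that of pig 017 on the vertical axis, one point a gene (8420 genes) and 5 gene lists in colour. Both axes use the same sham limbs, so the points are not independent evidence of likeness. Collagen and macrophage genes lie to the upper right and below the dashed line of equal difference, fast-twitch genes lie at the left and below 0 on both axes, and most slow-twitch and oxidative phosphorylation genes lie at the left but near 0 for pig 017.

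The hyaluronan genes were examined first because the filler itself is hyaluronan. Of 36 listed genes, 27 were in the table and 22 were tested. As deposited, 14 of the 22 were called higher and none lower, and after rescaling the count was 14 higher and 1 lower. Their median difference was 1.96 as deposited and 1.46 after rescaling, against 0.60 and 0.04 for all genes. In 18 of the 22, both Hya-repaired limbs were above both sham limbs, where 58.0% of all genes tested were, and in 1 both were below, where 18.7% of all genes were. Of the 22, 8 passed the filter of 1 TPM through the Hya-repaired limbs alone and 1 through the sham limbs alone, so that the side on which these 9 lay was set in part by the filter. ACAN, TNFAIP6, PTX3, TLR2, TLR4, LAYN and HMMR, described below, were among those that passed through the Hya-repaired limbs alone. The limb of pig 016 had 15 called higher and 1 lower, and that of pig 017 had 12 called higher and none lower. Without the limb of pig 016 the group's median difference was 1.69, which is that of pig 017 alone and no separate check. Without the sham limb of pig 025 the median was 1.87. Some listed genes, HAS2 and STAB2 among them, were not analysed here.

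The synthases that were measured lay near the bottom of the range. HAS1 stood at 0.0657 and 0.0418 TPM in the Hya-repaired limbs of pigs 016 and 017 and at 0.0115 and 0.0143 TPM in the sham limbs of pigs 025 and 026. HAS3 stood at 0.704 and 0.372 TPM against 0.58 and 1.14 TPM. Both were below the filter and were not tested, as were HAPLN1, ITIH1 and ITIH2, which had at most 0.576 TPM in these 4 limbs.

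Among the receptors, CD44, the main cell-surface receptor of hyaluronan, had 105 and 24.3 TPM in the Hya-repaired limbs and 2.89 and 7.67 TPM in the sham limbs. The groups did not overlap, and the limb of pig 016 had over 4 times the level of pig 017. CD44 rose by a log2 fold change of 3.28 ± 0.57 (SE, limma adjusted p = 0.000886), and by 2.73 after rescaling. LYVE1, a receptor of lymphatic vessels and of some tissue macrophages, had 16.8 and 14 TPM against 1.18 and 1.18 TPM and rose by 3.24 ± 0.31 (SE, limma adjusted p = 2.63e-05). LAYN, a further receptor, had 5.02 and 3.72 TPM against 0.411 and 2.36 TPM (log2 fold change 1.58, limma adjusted p = 0.0169), and its call was lost without the limb of pig 016 (adjusted p = 0.136) and without the sham limb of pig 025 (adjusted p = 0.221). HMMR, which also serves the mitotic spindle, had 2.67 and 1.44 TPM against 0.67 and 1.45 TPM and did not pass (limma adjusted p = 0.194). TLR2 and TLR4, innate immune receptors that can respond to hyaluronan fragments, rose by 2.81 and 2.40. TLR2 had 9.11 and 7.07 TPM against 0.607 and 0.839 TPM, and TLR4 had 14.1 and 6.36 TPM against 0.951 and 1.97 TPM.

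The proteoglycans that bind hyaluronan had the largest differences of the list. ACAN, which encodes aggrecan, the bulky proteoglycan of cartilage, had 656 and 180 TPM in the Hya-repaired limbs and 0.874 and 0.663 TPM in the sham limbs, and rose by 8.09 ± 0.57 (SE, limma adjusted p = 8.59e-06). VCAN, which encodes versican of the loose matrix, had 82.9 and 41.2 TPM against 1.65 and 3.00 TPM and rose by 4.42 ± 0.50 (SE, limma adjusted p = 6.97e-05). Both stood in the order pig 016, pig 017, sham. The proteins that crosslink hyaluronan during inflammation had nearly the same level in both Hya-repaired limbs. TNFAIP6, which transfers heavy chains of inter-alpha-inhibitor to hyaluronan, had 14.4 and 13.4 TPM against 0.782 and 2.07 TPM, and PTX3, a pentraxin of the same matrix, had 4.30 and 4.19 TPM against 0.801 and 0.88 TPM. They rose by 2.98 and 1.82 (limma adjusted p = 0.000559 and 0.00152). Of the heavy chains themselves, ITIH3, ITIH4 and ITIH5 did not pass (limma adjusted p = 0.223, 0.67 and 0.225). ITIH4 was on opposite sides in the Hya-repaired limbs, with 4.94 TPM in pig 016 and 22.7 TPM in pig 017 against 13.9 and 17.5 TPM.

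The enzymes that degrade hyaluronan did not move together. TMEM2, a cell-surface hyaluronidase, had 27.7 and 10.1 TPM against 2.24 and 2.46 TPM and rose by 2.61 ± 0.50 (SE, limma adjusted p = 0.0017). HYAL3 had 51.0 and 19.8 TPM against 7.32 and 10 TPM and rose by 1.84 (limma adjusted p = 0.0121), a call that was lost without the limb of pig 016 (adjusted p = 0.174) and without the sham limb of pig 025 (adjusted p = 0.0937). HYAL1, the lysosomal hyaluronidase, had 8.98 and 2.94 TPM against 1.11 and 1.48 TPM and did not pass (limma adjusted p = 0.0635). HYAL2 had 17.1 and 16.1 TPM, between the 7.79 and 31.0 TPM of the sham limbs, and its difference was 0.08 as deposited and -0.51 after rescaling. Of the lysosomal enzymes that trim the fragments, HEXA rose by 2.75 and GUSB by 3.13 (limma adjusted p = 6.97e-05 and 7.62e-05). HEXA had 119 and 65.1 TPM against 10.7 and 14.9 TPM. Of the remaining binding proteins, HABP4 did not pass in either scale, and HABP2, a plasma protease, had 0.482 and 2.31 TPM against 4.34 and 4.27 TPM and was called lower after rescaling (log2 fold change -2.05, limma adjusted p = 0.0293), though not as deposited (adjusted p = 0.103).

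**Figure D2:**
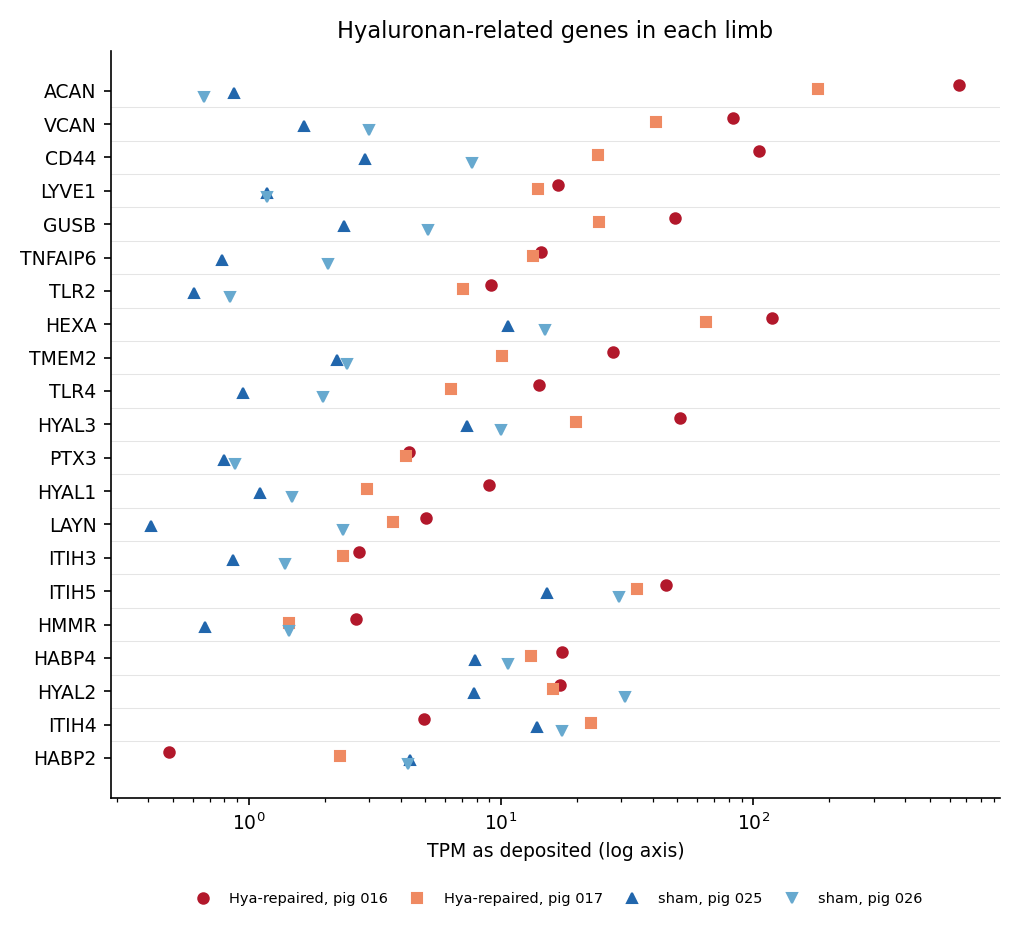
TPM as deposited (log axis) of 21 tested hyaluronan genes, ordered by log2 fold change, with 1 point for each Hya-repaired limb (red circle pig 016, orange square pig 017) and each sham-operated limb (blue triangles). From ACAN down to ITIH5, and in HABP4, both Hya-repaired limbs lie right of both sham limbs. HMMR, HYAL2 and ITIH4 overlap with the sham limbs, and HABP2 lies left of them in both limbs.

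The Hya-repaired limbs were also compared with the other injured limbs, which received no gel. Against the 2 non-repaired limbs, limma called 0 of the 8420 genes, with 174 at an unadjusted p under 0.05, and against the 6 ECM-repaired limbs it called 0, with 184 at an unadjusted p under 0.05. The ECM-repaired limbs were pooled in the latter test, whichever sheet they received. Pig 017 gave a limb to both the Hya-repaired and the non-repaired group, and the fit treats these limbs as independent. For the 22 hyaluronan genes the difference from non-repaired muscle had a median of -0.37, a lowest value of -1.01 and a highest of 0.30, with a median SE of 0.49, against a median of -0.27 over all genes. CD44 had 48.5 and 46.8 TPM in the non-repaired limbs and 43.5 to 74.8 TPM in the ECM-repaired limbs, so that the Hya-repaired limbs lay on either side of both groups. TNFAIP6 had 20.8 and 15.3 TPM in the non-repaired limbs, above both Hya-repaired limbs. With so few limbs, a difference that did not pass is not shown to be 0.

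The collagenous matrix took a share of the transcripts in the Hya-repaired limbs that was many times that in sham muscle. Genes of collagen fibrils and of proteins that bind them accounted for 17.5% of all TPM assigned to named genes for pig 016 and 6.86% for pig 017 after Hya repair, and 0.223 and 0.422% in the sham limbs. The non-repaired limbs had 14.1 and 11.3% and the ECM-repaired limbs 9.37 to 15.3%, so that pig 016 was above and pig 017 below every other injured limb. Of 29 tested genes of this list, 27 were called higher and none lower on both scales, with a median difference of 4.66 as deposited and 4.07 after rescaling. Of the 29, 2 passed the filter through the Hya-repaired limbs alone. On its own the limb of pig 017 had 21 of the 29 called higher.

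COL3A1, the chain of type III collagen of early scar, had 53763 TPM in pig 016 and 20294 TPM in pig 017, against 571 and 780 TPM in the sham limbs, and rose by 5.63 ± 0.45 (SE, limma adjusted p = 1.05e-05). COL1A2, a chain of type I collagen, had 35527 and 13905 TPM against 280 and 483 TPM and rose by 5.92 ± 0.46 (SE, limma adjusted p = 8.71e-06). In both genes the limb of pig 016 had over 2 times the level of pig 017, and both were far above the sham limbs. COL1A1, the partner chain of COL1A2, is listed at 0 in every library, and no value is drawn from it. POSTN, which encodes the matrix protein periostin, had 1940 and 606 TPM against 7.10 and 15.7 TPM, and ASPN, asporin, had 2036 and 711 TPM against 5.70 and 13 TPM. They rose by 6.61 and 7.04 (limma adjusted p = 8.71e-06 and 8.59e-06).

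Of 23 tested genes of collagen crosslinking, folding and proteolysis, a list that also holds matrix proteases and their inhibitors, 21 were called higher and none lower on both scales. Of the 23, 4 passed the filter through the Hya-repaired limbs alone, LOX among them. LOX, the lysyl oxidase that links collagen chains, had 35.2 and 12.2 TPM against 0.854 and 2.38 TPM and rose by 3.44 ± 0.64 (SE, limma adjusted p = 0.00141). FKBP10, a collagen chaperone, rose by 5.26, and CRTAP, part of the prolyl 3-hydroxylase complex, rose by 3.38. Of 17 tested fibroblast and myofibroblast markers, 12 were called higher and none lower on both scales, and 3 of the 17 passed the filter through the Hya-repaired limbs alone. FAP, a protease of activated fibroblasts, had 262 and 95.9 TPM against 4.64 and 5.57 TPM and rose by 4.83 (limma adjusted p = 2.13e-05). PDGFRA, a receptor of fibro-adipogenic progenitors, had 11.9 and 7.16 TPM against 1.98 and 1.95 TPM and rose by 1.98 (limma adjusted p = 0.00246). PDGFRB, of pericytes and fibroblasts, rose by 2.65 in the group, a call that was lost without the limb of pig 016 (adjusted p = 0.131) and without the sham limb of pig 025 (adjusted p = 0.0956). The basement membrane list showed smaller differences, with 4 of 8 genes called higher as deposited and 3 after rescaling, and 0 of 8 without the limb of pig 016 or the sham limb of pig 025. Over all genes, 35.0% were called higher as deposited and 24.4% after rescaling. COL4A1, the main type IV collagen chain, had 362 and 200 TPM against 48.7 and 128 TPM, and LAMA4, a laminin chain of vessels, had 580 and 467 TPM against 133 and 173 TPM. Both rose as deposited, by 1.76 and 1.77 (limma adjusted p = 0.0331 and 0.00638), and both calls were lost without pig 016 (0.26 and 0.0587) and without the sham limb of pig 025 (0.278 and 0.063), that of COL4A1 after rescaling as well (0.0648).

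The 10 largest rises among abundant genes were taken by size alone. Besides ACAN and ASPN they included COMP, cartilage oligomeric matrix protein, with 2713 and 608 TPM against 2.29 and 15 TPM, CTHRC1, a secreted protein of wound fibroblasts, with 499 and 191 TPM against 1.09 and 2.20 TPM, and FNDC1, with 1522 and 437 TPM against 3.31 and 13.1 TPM. They rose by 7.61, 7.22 and 6.83. S100A4, a calcium-binding protein found in fibroblasts and leukocytes, had almost the same level in both Hya-repaired limbs, 1763 and 1629 TPM, against 5.60 and 24.2 TPM, and rose by 7.11 ± 0.69 (SE, limma adjusted p = 2.74e-05). CRABP2, which carries retinoic acid to the nucleus, had 723 and 261 TPM against 1.63 and 8.60 TPM. S100A6, another small calcium-binding protein, had the largest difference of the 10, 8.38, with 6171 and 2604 TPM against 3.18 and 38.9 TPM, but its SE was 2.74, its adjusted p was 0.0315, and its call was lost without either Hya-repaired limb or either sham limb (adjusted p = 0.0503 to 0.204). Across the ECM-repaired limbs its level ran from 15.8 to 5074 TPM. LOC106507869, a gene without a name in the table, had 632 and 212 TPM against 0.818 and 0.976 TPM. ACAN and LOC106507869 passed the filter through the Hya-repaired limbs alone, so that their side was set in part by the filter.

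**Figure D3:**
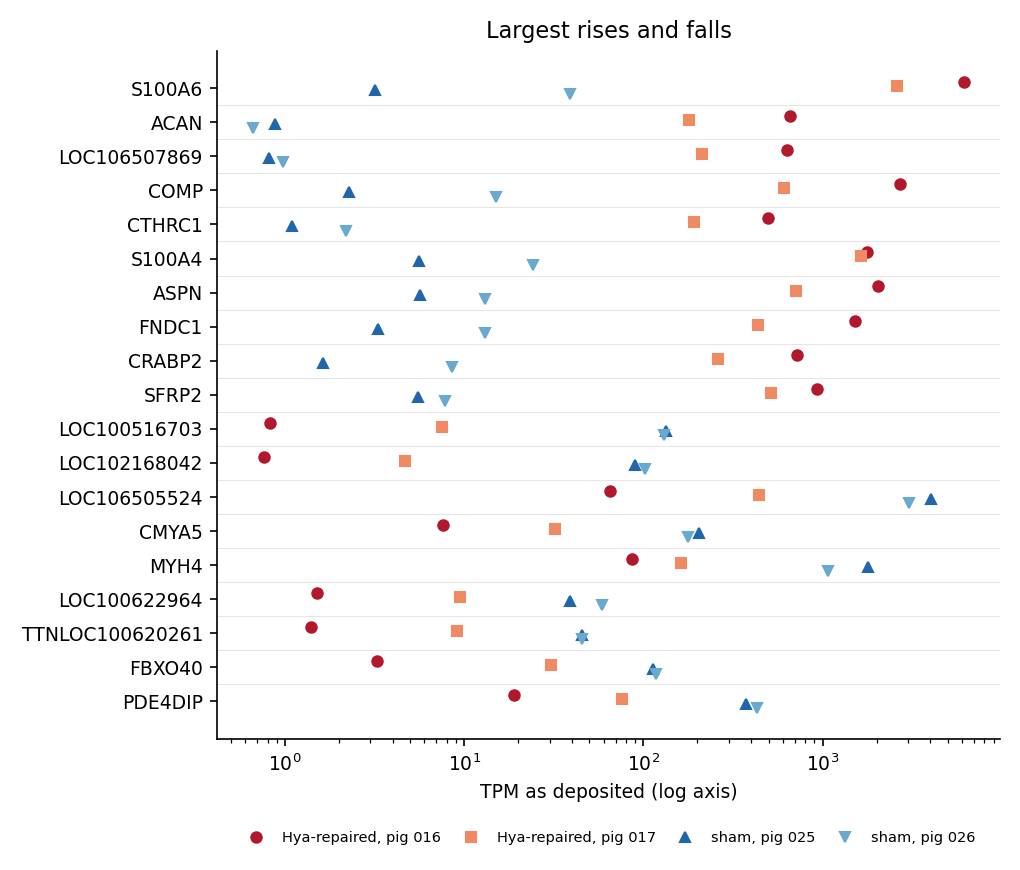
TPM as deposited (log axis) of the 10 largest rises and, below them, 9 of the largest falls among abundant genes that passed on both scales and did not overlap between groups, with 1 point for each limb. In all 10 rises pig 016 lies at or right of pig 017, and in all 9 falls it lies left of it, so that pig 017 stands between pig 016 and the sham limbs.

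Genes of TGF-beta signaling, the pathway best known for driving scar formation, were less uniform. For the TGF-beta and Wnt counts given here, the share over all genes was 35.0% higher and 4.23% lower as deposited. After rescaling it was 24.4 and 19.2%. Of 18 tested, 10 were called higher and none lower as deposited, and 7 higher and 2 lower after rescaling, and the higher calls as deposited were 5 without pig 016 and 6 without the sham limb of pig 025. The ligand TGFB1 had 92.0 and 42.5 TPM against 5.15 and 16.8 TPM and rose by 2.67 ± 0.47 (SE, limma adjusted p = 0.000914), and TGFB3 had 90.3 and 39.8 TPM against 1.57 and 5.81 TPM and rose by 4.06. TGFB2 had 47.0 TPM in pig 016 but 14.3 TPM in pig 017, close to the 12.4 and 8.69 TPM of the sham limbs, and did not pass (limma adjusted p = 0.0592). The target CTGF, a matricellular protein, had 384 and 322 TPM against 18.2 and 41.9 TPM and rose by 3.65 (limma adjusted p = 0.000158). Of 13 tested genes of Wnt signaling, 9 were called higher and 2 lower as deposited, and none lower without pig 016 or either sham limb. The highest were secreted frizzled-related proteins, which bind Wnt ligands outside the cell. SFRP2 had 934 and 515 TPM against 5.52 and 7.85 TPM, SFRP1 had 191 and 52.2 TPM against 1.46 and 1.69 TPM, and SFRP4 had 434 and 204 TPM against 5.78 and 11.3 TPM. They rose by 6.61, 5.60 and 5.11. Of the 13 Wnt genes, 2 passed the filter through the Hya-repaired limbs alone and 2 through the sham limbs alone.

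Of 13 tested genes of tendon, cartilage and bone, 8 were called higher and none lower on both scales. Over all genes, 35.0% were called higher as deposited and 24.4% after rescaling. Of the 13, 6 passed the filter through the Hya-repaired limbs alone, ACAN and TNMD among them, so that their side was set in part by the filter. Their summed share was 0.683% of TPM assigned to named genes in pig 016 and 0.179% in pig 017, against 0.00756 and 0.0127% in the sham limbs and 0.17 to 0.393% in the ECM-repaired limbs. TNMD, tenomodulin of tendon cells, had 514 and 76.4 TPM against 0.896 and 6.44 TPM and rose by 6.0 ± 1.05 (SE, limma adjusted p = 0.000922). FMOD, fibromodulin, had 1168 and 259 TPM against 7.23 and 21.3 TPM and rose by 5.41. EGR1, a factor of tendon cells that is also an immediate early gene, had 45.3 and 23.7 TPM against 34.6 and 20.0 TPM and did not pass (limma adjusted p = 0.72), with a difference of 0.31 as deposited and -0.29 after rescaling.

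The contractile genes differed widely between the Hya-repaired limbs. Genes of the fast-twitch sarcomere accounted for 1.65% of all TPM assigned to named genes in pig 016 and 9.87% in pig 017, against 21.9 and 20.9% in the sham limbs, so that tissue labelled muscle in pig 016 held few of the transcripts that define muscle fibers. The ECM-repaired limbs had 1.35 to 6.76% and the non-repaired limbs 5.19 and 7.08%. Pig 016 thus lay within the ECM-repaired range, and pig 017 above every other injured limb. Of 17 tested fast-twitch genes, 9 were called lower as deposited and 12 after rescaling, none were called higher, and in all 17 both Hya-repaired limbs were below both sham limbs, where 18.7% of all genes were. The median difference as deposited was -3.44 in pig 016 and -1.15 in pig 017. For the group it was -2.31 with all limbs, and -2.32 or -2.30 without the sham limb of pig 025 or 026. As deposited, the calls needed pig 016 and both sham limbs. A fit with 1 limb in a group can lose calls without a change of the difference.

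TNNI2, the fast troponin I that regulates contraction, had 1520 TPM in pig 016 and 6160 TPM in pig 017, against 14368 and 14999 TPM in the sham limbs, with a log2 fold change of -2.26 ± 0.68 (SE, limma adjusted p = 0.0203). TPM1, a tropomyosin of the thin filament, had 997 and 4016 TPM against 11430 and 8594 TPM (log2 fold change -2.31, limma adjusted p = 0.0256). MYH4, the myosin heavy chain of the fastest fibers, had 86.1 and 163 TPM against 1796 and 1076 TPM (log2 fold change -3.55, limma adjusted p = 0.0416), and was far below sham in both limbs. MYH1, another fast heavy chain, had 305 and 1285 TPM against 5479 and 4271 TPM and did not pass as deposited (limma adjusted p = 0.0879) but passed after rescaling (0.0447). MYH2 had 269 and 610 TPM against 998 and 1739 TPM and did not pass (limma adjusted p = 0.277). The calls of TNNI2, TPM1 and MYH4 were lost without the limb of pig 016 (adjusted p = 0.271, 0.31 and 0.278), without the sham limb of pig 025 (0.0895, 0.138 and 0.198) and without that of pig 026 (0.0698, 0.0599 and 0.0929). The call of MYH4 was also lost without pig 017 (0.0765).

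The slow-twitch genes of pig 017, by contrast, stood near the level of sham muscle as deposited. They accounted for 3.87% of all TPM assigned to named genes in pig 017 and 0.234% in pig 016, against 4.56 and 4.46% in the sham limbs, 1.18 and 1.35% in the non-repaired limbs and 0.346 to 1.67% in the ECM-repaired limbs. MYL2, the slow myosin regulatory light chain, had 6556 TPM in pig 017, between the 7042 and 6469 TPM of the sham limbs, and 263 TPM in pig 016. MYL3, a slow essential light chain, had 3285 TPM in pig 017, between 3829 and 2520 TPM, and 91.7 TPM in pig 016. MYH7, the slow heavy chain, had 2597 TPM in pig 017, just under the 2826 and 3457 TPM of the sham limbs, and 159 TPM in pig 016. MYOZ2, which binds calcineurin at the Z-disc of slow fibers, had 273 TPM in pig 017 and 34.6 TPM in pig 016 against 364 and 369 TPM, and did not pass as deposited (limma adjusted p = 0.0675) but was called lower after rescaling (0.0293). Against sham alone, the limb of pig 016 had 10 of 11 slow-twitch genes called lower, with a median difference of -3.98, and that of pig 017 had 0 of 11, with a median of -0.14. After rescaling the medians were -4.78 and -0.55, and 10 and 0 were again called lower. As a group 0 of 11 passed as deposited and 4 after rescaling. All 11 were lower in pig 016 than in pig 017. The difference between the limbs itself was not tested, as each is a single limb.

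The balance of the fiber types was described by a ratio, with no test between the limbs. The summed slow-twitch share over the fast-twitch share was 0.208 and 0.214 in the sham limbs, 0.392 in pig 017 and 0.142 in pig 016 after Hya repair. In non-repaired muscle it was 0.227 (pig 017) and 0.191 (pig 023), and it ran from 0.178 to 0.347 in the ECM-repaired limbs, so that the Hya-repaired limbs held the highest and the lowest ratio of all 12. This ratio is taken within a library and does not depend on the scaling.

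**Figure D4:**
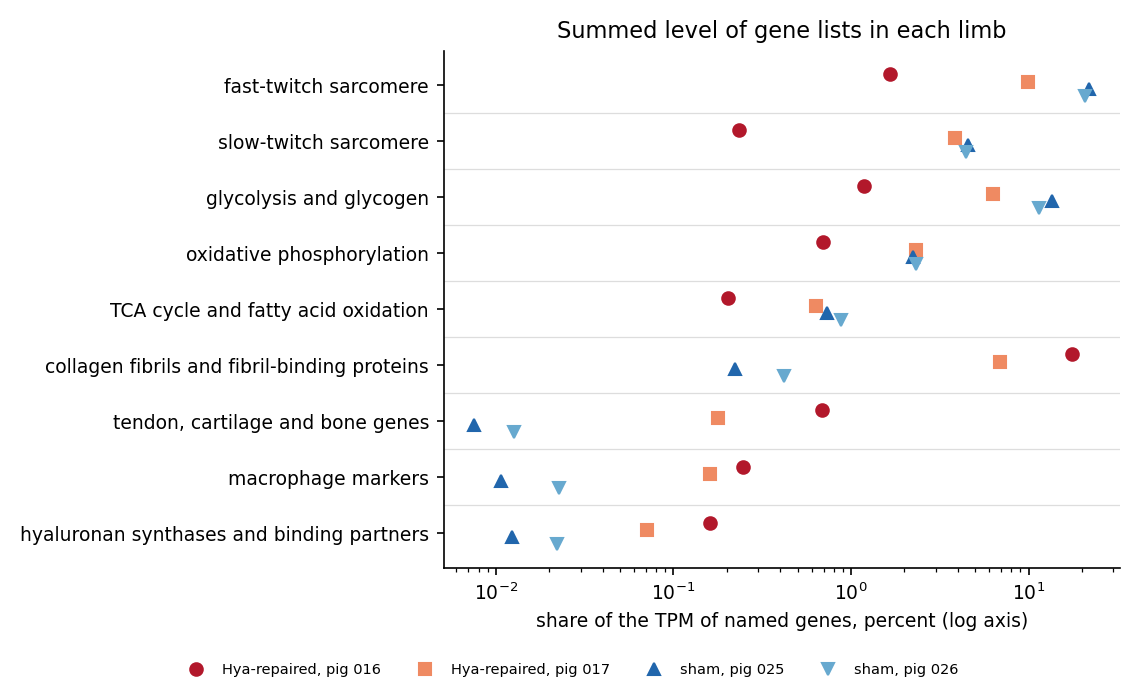
Summed TPM of 9 gene lists as a percent of TPM assigned to named genes in each library (log axis), with 1 point for each Hya-repaired limb and each sham-operated limb. Pig 017 lies close to the sham limbs for slow-twitch and oxidative phosphorylation genes and between pig 016 and the sham limbs for the other lists, while pig 016 lies away from them in every list.

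Genes of energy metabolism are given by pathway. Glycolysis and glycogen genes accounted for 1.18% of all TPM assigned to named genes in pig 016 and 6.28% in pig 017, against 13.6 and 11.5% in the sham limbs. Of 26 tested, 14 were called lower and 5 higher as deposited, and 17 lower and 5 higher after rescaling. The lower calls as deposited numbered 1 without pig 016, 1 and 5 without the sham limbs of pigs 025 and 026, and 16 without pig 017, and after rescaling 1, 3, 11 and 18. PYGM, the muscle glycogen phosphorylase, had 406 and 1803 TPM against 4452 and 5425 TPM (log2 fold change -2.52, limma adjusted p = 0.0463), and PGM1, phosphoglucomutase, had 95.6 and 422 TPM against 957 and 909 TPM (log2 fold change -2.21, limma adjusted p = 0.0243). Both calls were lost without pig 016 (adjusted p = 0.419 and 0.318) and without the sham limb of pig 025 (0.148 and 0.115) or that of pig 026 (0.154 and 0.0774). Among the 5 called higher were isoforms that are not special to muscle. PFKL, the liver type of phosphofructokinase, had 51.8 and 28.0 TPM against 5.22 and 8.99 TPM and rose by 2.39, and PGAM1, the widely expressed phosphoglycerate mutase, had 204 and 89.8 TPM against 14.7 and 27.4 TPM and rose by 2.72.

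Oxidative phosphorylation genes accounted for 2.33% of all TPM assigned to named genes in pig 017, against 2.23 and 2.33% in the sham limbs, and 0.696% in pig 016, below the 0.801 to 1.51% of the ECM-repaired limbs. Of 32 tested, the limb of pig 016 had 27 called lower and 2 higher as deposited, and that of pig 017 had 0 lower and 2 higher. As a group 0 were called lower as deposited and 14 after rescaling, but 0 after rescaling without pig 016 or without either sham limb. NDUFA4, a small subunit of the respiratory chain, had 361 TPM in pig 016 and 2000 TPM in pig 017 against 2647 and 2383 TPM, and NDUFA1 had 105 and 322 TPM against 280 and 292 TPM. The subunits called higher were COX6A1, the form of most tissues, with 381 and 224 TPM against 29.9 and 48.2 TPM (log2 fold change 2.93, limma adjusted p = 0.000211), and COX7A2, with 173 and 156 TPM against 63.2 and 69.5 TPM (1.30, adjusted p = 0.00496), the latter not after rescaling (adjusted p = 0.189). The TCA cycle and fatty acid oxidation list had 9 of 29 genes called lower as deposited and 21 after rescaling. As deposited the count was 0 without pig 016, 1 and 0 without the sham limbs of pigs 025 and 026, and 21 without pig 017, and after rescaling it was 2, 5, 9 and 27. CS, citrate synthase, had 27.9 and 82.7 TPM against 139 and 161 TPM (log2 fold change -1.63, limma adjusted p = 0.0198), a call that was lost without pig 016 (0.268) and without either sham limb (0.0753 and 0.0809).

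The largest falls included further genes known from muscle. CMYA5, a costameric anchoring protein, had 7.63 and 32.3 TPM against 205 and 178 TPM, FBXO40, a muscle ubiquitin ligase subunit, had 3.28 and 30.4 TPM against 113 and 117 TPM, and PDE4DIP, a scaffold of the Golgi and centrosome, had 19.0 and 76.2 TPM against 375 and 428 TPM. They had differences of -3.55, -3.41 and -3.38 (limma adjusted p = 0.0287, 0.0406 and 0.0241), and all 3 calls were lost without pig 016 (0.291, 0.42 and 0.268) and without the sham limb of pig 025 (0.138, 0.154 and 0.106) or of pig 026 (0.0897, 0.126 and 0.0938). The name TTNLOC100620261, which joins the symbol of titin to a locus name, had 1.39 and 9.10 TPM against 45.5 and 45.6 TPM (-3.44, adjusted p = 0.0212), a call lost without pig 016 (0.26) and without the sham limb of pig 025 (0.106) or of pig 026 (0.079). The remaining 4 falls carry locus names only. LOC100516703 had the largest, -5.35 ± 0.99 (SE, limma adjusted p = 0.00129), with 0.827 and 7.56 TPM against 133 and 131 TPM, and its call held without each limb. LOC102168042 and LOC100622964, at -5.23 and -3.44, lost their calls without pig 016 (0.0763 and 0.0598). LOC106505524, at -4.35, lost its call without pig 016 (0.394) and without the sham limb of pig 025 (0.189) or of pig 026 (0.118).

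Of 12 tested satellite cell and myogenic regulators, 5 were called lower and 1 higher as deposited, and 8 lower and 1 higher after rescaling. The lower calls as deposited numbered 0 without pig 016, 0 and 1 without the sham limbs of pigs 025 and 026, and 7 without pig 017, and after rescaling 1, 2, 4 and 9. MYOD1, the myogenic transcription factor, had 2.30 and 5.60 TPM against 11.6 and 16.8 TPM (log2 fold change -1.81, limma adjusted p = 0.0447), and MSTN, myostatin, which restrains muscle growth, had 0.37 and 3.62 TPM against 13.9 and 12.4 TPM (-2.85, adjusted p = 0.00846). The call of MYOD1 was lost without pig 016 (0.344) and without either sham limb (0.107 and 0.172), and that of MSTN without pig 016 (0.139) and without the sham limb of pig 025 (0.0595). The gene called higher was IGF1, a growth factor of macrophages and fibroblasts as well as muscle, with 36.2 and 15.4 TPM against 1.28 and 2.65 TPM (3.35, adjusted p = 0.000211). Of 9 calcium handling genes, 2 were called lower as deposited and 5 after rescaling, and 0 as deposited without pig 016 or either sham limb. ATP2A2, the calcium pump of slow fibers, had 38.0 TPM in pig 016 and 432 TPM in pig 017 against 652 and 540 TPM, and CASQ1, calsequestrin of fast fibers, had 194 and 1022 TPM against 2290 and 2246 TPM.

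Genes linked to denervation and to wasting did not form a single pattern. Of 8 tested embryonic, denervation and junction genes, 3 were called higher and none lower as deposited, and 2 higher after rescaling, beside 35.0 and 24.4% called higher over all genes. CHRNE, a subunit of the adult acetylcholine receptor, had 8.95 and 3.24 TPM against 0.223 and 0.635 TPM (log2 fold change 2.71, limma adjusted p = 0.000408), and RUNX1, which denervated muscle induces but leukocytes also express, had 13.2 and 4.72 TPM against 0.30 and 1.82 TPM (2.64, adjusted p = 0.00266). CHRNE and RUNX1 passed the filter through the Hya-repaired limbs alone, so that their side was set in part by the filter. NCAM1 had 13.4 TPM in pig 016, but 5.50 TPM in pig 017 lay within the 1.80 and 5.66 TPM of the sham limbs (adjusted p = 0.0847). Of 18 muscle atrophy and proteolysis genes, 3 were called higher and 1 lower as deposited, and 2 higher and 6 lower after rescaling, with none lower as deposited without pig 016 or either sham limb. Over all genes, 4.23% were called lower as deposited and 19.2% after rescaling. The ubiquitin ligases of muscle wasting, FBXO32 and TRIM63, did not pass (adjusted p = 0.144 and 0.188). FBXO32 had 3.41 TPM in pig 016 and 32.3 TPM in pig 017 against 33.9 and 42.4 TPM, and TRIM63 had 19.1 and 174 TPM against 140 and 198 TPM, so that pig 017 stood near or within the sham range. The proteases CAPN2 and CTSL, which many cell types express, rose by 2.12 and 3.33 (adjusted p = 0.00039 and 0.000469).

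Macrophage genes followed. Of 20 tested macrophage markers, 19 were called higher and none lower on both scales, with a median difference of 3.33 as deposited and 2.90 after rescaling. Of the 20, 5 passed the filter through the Hya-repaired limbs alone. The limb of pig 016 had 20 called higher and that of pig 017 had 18. Their summed share was 0.247 and 0.16% of TPM assigned to named genes, against 0.0107 and 0.0227% in the sham limbs, 0.312 and 0.237% in the non-repaired limbs and 0.242 to 0.382% in the ECM-repaired limbs. C1QA, a chain of the complement recognition protein that macrophages secrete, had 256 and 181 TPM against 7.12 and 12.2 TPM and rose by 4.45 ± 0.34 (SE, limma adjusted p = 8.71e-06). C1QB and C1QC rose by 4.47 and 4.30. CD68, a lysosomal marker, had 44.3 and 24.1 TPM against 1.68 and 3.06 TPM and rose by 3.58, and CD163, the haemoglobin scavenger receptor, had 22 and 14.9 TPM against 3.63 and 3.82 TPM and rose by 2.14.

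Of 4 tested genes of giant cells and osteoclasts, 2 were called higher on both scales, beside 35.0 and 24.4% over all genes. Of the 4, 2 passed the filter through the Hya-repaired limbs alone, ACP5 among them. The side of these genes was set in part by the filter, and nothing is read from the count. CTSK, a collagen-degrading protease that fibroblasts make too, had 343 and 175 TPM against 9.37 and 21.2 TPM, and ACP5, tartrate-resistant acid phosphatase, had 20.0 and 13.5 TPM against 0.139 and 0.414 TPM. They rose by 4.07 and 4.47. DCSTAMP, which macrophages need to fuse, stood at 0 and 0.0387 TPM against 0 and 0.0177 TPM and was not tested. Of 22 complement genes, 13 were called higher and none lower as deposited, and 12 higher and 1 lower after rescaling. Of the 22, 6 passed the filter through the Hya-repaired limbs alone.

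Among 32 tested chemokines and cytokines, 17 were called higher and 1 lower as deposited, and 14 higher and 1 lower after rescaling, and the higher calls as deposited were 8 without pig 016 and 9 without the sham limb of pig 025. Over all genes, 35.0% were called higher as deposited and 24.4% after rescaling. Of the 32, 7 passed the filter through the Hya-repaired limbs alone and 2 through the sham limbs alone, so that their side was set in part by the filter. CCL21, which draws dendritic cells and T cells to lymphatic vessels, had 273 and 154 TPM against 7.83 and 7.30 TPM and rose by 4.67 ± 0.46 (SE, limma adjusted p = 2.74e-05). CXCL16 had 32.6 and 18.9 TPM against 1.09 and 4.21 TPM and rose by 3.21. CCL2, which recruits monocytes, had 46.4 TPM in pig 016 and 13 TPM in pig 017 against 4.53 and 5.19 TPM (2.23, adjusted p = 0.00739), and its call was lost without pig 016 (0.117) and without the sham limb of pig 025 (0.0556). Lymphocyte genes lay low. CD3E, part of the T cell receptor complex, had 2.13 and 1.25 TPM against 0.572 and 0.969 TPM and did not pass (adjusted p = 0.38), and 2 of 7 tested T and NK markers were called higher as deposited and 1 after rescaling, all 7 having passed the filter through the Hya-repaired limbs alone, and of these NKG7 had 14.3 and 7.6 TPM against 0.544 and 1.68 TPM. The B cell markers MS4A1 and CD79A were below the filter, with at most 0.608 TPM. Of the same list SDC1, which fibroblasts and epithelia also carry, and XBP1, of secretory cells in general, rose by 3.51 and 2.07. SDC1 passed the filter through the Hya-repaired limbs alone. Of 9 genes of MHC class II presentation, 4 were called higher as deposited (2 without pig 016 or without the sham limb of pig 025) and 2 after rescaling, SLA-DMB rising by 2.65 while SLA-DRA, with 242 and 188 TPM against 64.4 and 98.8 TPM, did not pass (adjusted p = 0.0544). Beside 35.0 and 24.4% called higher over all genes, nothing is read from the T and NK or the class II counts. The neutrophil genes S100A8, S100A9 and S100A12 were below the filter, with at most 0.816 TPM.

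Genes of vessels, nerve and fat had smaller differences. Of 15 endothelial and lymphatic markers, 3 were called higher as deposited and 1 after rescaling, the latter being LYVE1 (1 as deposited without pig 016 or without the sham limb of pig 025), and the list's median was -0.04 and -0.64. PECAM1 had 118 and 99.9 TPM against 58.0 and 114 TPM, with a difference of 0.42 as deposited and -0.19 after rescaling, and VWF had 24.3 and 18.9 TPM against 28.9 and 36.4 TPM. Of 14 smooth muscle and pericyte markers, 1 was called higher and 1 lower as deposited, where 35.0 and 4.23% of all genes were. TAGLN, a smooth muscle and myofibroblast protein, had 957 and 497 TPM against 79.3 and 216 TPM and rose by 2.39, while ACTA2 had 302 and 206 TPM against 70.2 and 175 TPM and did not pass (adjusted p = 0.0724). Of 8 Schwann cell and nerve markers, 3 were called higher as deposited and 2 after rescaling, again beside 35.0 and 24.4% over all genes, and without the sham limb of pig 025 it was 1. CNP, a myelin enzyme, and GAP43, a growth cone protein, rose by 2.04 and 1.95, the latter call being lost without the sham limb of pig 025 (adjusted p = 0.0728), and S100B passed as deposited (adjusted p = 0.0392) but not after rescaling (0.114), nor without pig 016 (0.361) or either sham limb (0.123 and 0.125).

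Of 16 tested adipocyte markers, 2 were called higher and 1 lower as deposited, and 1 higher and 5 lower after rescaling. Over all genes, 35.0% were called higher and 4.23% lower as deposited, and 24.4 and 19.2% after rescaling. Of the 16, 1 passed the filter through the Hya-repaired limbs alone and 3 through the sham limbs alone. On its own, after rescaling, the limb of pig 016 had 1 called higher and 9 lower, and that of pig 017 had 1 of each. Of those called higher as deposited, SCD, a desaturase of fatty acids, had 7.07 and 8.98 TPM against 1.52 and 1.95 TPM, and CEBPA, a transcription factor of adipocytes, had 10.8 and 5.22 TPM against 1.29 and 4.40 TPM (limma adjusted p = 0.00145 and 0.0278). The call of CEBPA was lost after rescaling (0.099), without pig 016 (0.281) and without the sham limb of pig 025 (0.298). ADIPOQ, adiponectin of adipocytes, had 0.826 TPM in pig 016 and 9.98 TPM in pig 017 against 4.09 and 11.1 TPM, and PLIN1, perilipin of lipid droplets, had 0.269 and 5.07 TPM against 1.46 and 5.49 TPM, so that in these genes pig 017 lay within the sham range and pig 016 below it. Neither passed (adjusted p = 0.435 and 0.546). The summed adipocyte share was 0.0228 and 0.071%, against 0.0794 and 0.1% in the sham limbs. HBB, beta globin of red cells, had 38.2 TPM in pig 016 and 376 TPM in pig 017, against 15.7 and 79.6 TPM in the sham limbs and 276 and 56.2 TPM in the non-repaired limbs of pigs 017 and 023. Pig 017 thus had more adipocyte and globin transcripts beside its higher slow-twitch level, and their part in the results was not tested.

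Cell cycle genes lay at low levels. Of 21 tested, 18 were called higher and none lower as deposited, and 17 after rescaling. Of the 21, 16 passed the filter of 1 TPM through the Hya-repaired limbs alone, so that their side was set in part by the filter and nothing is read from the count. Without pig 016 or without the sham limb of pig 025 the count as deposited was 7. TYMS, thymidylate synthase, had 11 and 6.82 TPM against 0.879 and 1.30 TPM and rose by 2.54, and UBE2C, of mitotic exit, had 12.6 and 10.2 TPM against 0.739 and 2.64 TPM and rose by 2.59. TOP2A had 4.26 and 3.94 TPM against 0.758 and 1.56 TPM (1.51, adjusted p = 0.0161), a call lost without pig 016 (0.102) or the sham limb of pig 025 (0.15). Of 23 immediate early and heat shock genes, which handling of tissue can induce, 2 were called higher as deposited, and 0 higher and 3 lower after rescaling. Over all genes, 35.0% were called higher as deposited, and 24.4% higher and 19.2% lower after rescaling. FOS had 33.5 and 39.7 TPM against 206 and 83.7 TPM and did not pass (adjusted p = 0.124), and JUN had 44.1 and 105 TPM against 132 and 155 TPM and was called lower after rescaling (-1.68, adjusted p = 0.016).

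**Figure D5:**
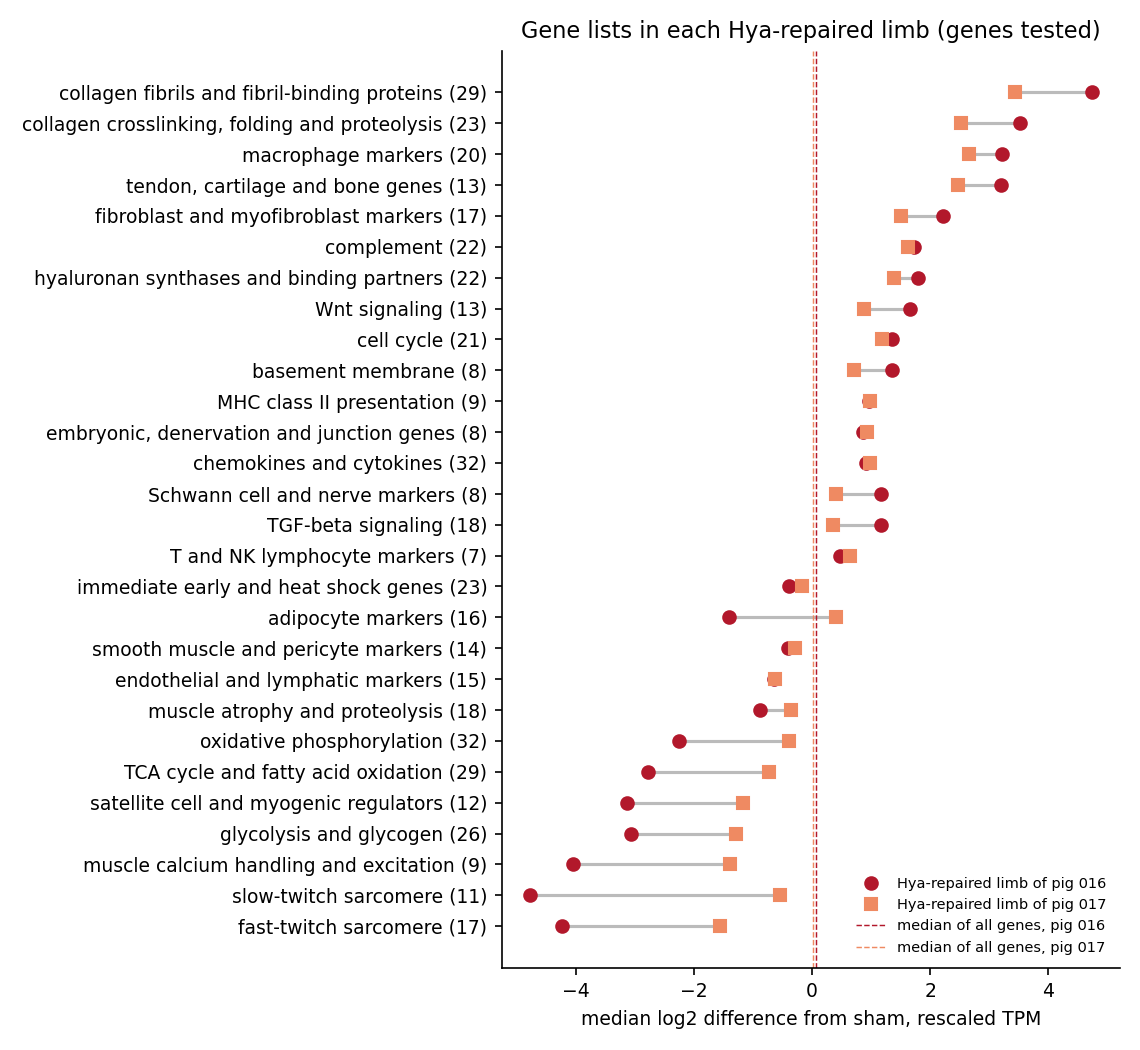
Median log2 difference from the sham limbs after rescaling for each gene list with at least 5 tested genes (number in brackets), for the Hya-repaired limbs of pig 016 (red circle) and pig 017 (orange square), joined by a grey bar, with the median of all genes dashed. The limbs lie close together for complement, cell cycle, chemokine and endothelial genes, and far apart for slow-twitch, calcium handling, fast-twitch and mitochondrial genes.

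The Hya-repaired limbs were then compared with each other, without a test. At least 2-fold differences were found in 1308 genes higher in pig 016 (15.5%) and 683 genes higher in pig 017 (8.11%), 1991 in all. After rescaling they were 423 and 1008, 1431 in all, so the counts on each side moved with the scaling. The same count was 588 in the sham pair and 303 in the non-repaired pair, or 447 and 252 after rescaling. Over the 15 possible ECM-repaired pairs it ran from 240 to 2911 with a median of 995, and 3 pairs, all with pig 024, exceeded the Hya-repaired pair. After rescaling 2 of the 15 exceeded it. The Hya-repaired limbs stood on opposite sides of both sham limbs in 240 genes with pig 016 above and 193 with pig 017 above.

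Among abundant genes, those highest in pig 017 over pig 016 were in part genes of the slow or oxidative fiber. MYL2 and MYL3 stood within the sham range in pig 017, and LOC100620599 had 871 TPM in pig 017 and 37.6 TPM in pig 016 against 1308 and 985 TPM. ABRA, an actin-binding activator of muscle transcription, had 210 TPM in pig 017 and 9.11 TPM in pig 016 against 120 and 192 TPM. PDK4, a kinase that turns pyruvate away from mitochondria in fasting muscle, had 70.2 TPM in pig 017 and 0.892 TPM in pig 016 against 19.4 and 64.2 TPM. In these genes the non-repaired limb of pig 017 lay between the Hya-repaired limbs, with 1917 TPM of MYL2, 1225 TPM of MYL3, 282 TPM of LOC100620599, 95.3 TPM of ABRA and 25.8 TPM of PDK4.

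Other genes of the ranking had near-zero levels in a single Hya-repaired limb. PPIB, a chaperone of collagen folding in the endoplasmic reticulum, had 4.67e-05 TPM in pig 016, 82.7 TPM in pig 017 and 4.65 and 10 TPM in the sham limbs, while all other injured limbs had 85.6 to 204 TPM. It was called higher in pig 017 (log2 fold change 3.50, limma adjusted p = 0.00105) and lower in pig 016 (-3.88, adjusted p = 0.000147). MYO9A, an unconventional myosin chosen here after its values were seen, is listed at 0 in pig 017 and had 9.26 TPM in pig 016 against 6.12 and 6.50 TPM. A value at or near 0 in 1 library may be a failed estimate, and no loss of expression is read from it. RPS3, a protein of the small ribosomal subunit, had 362 TPM in pig 016 and 1.73 TPM in pig 017 against 392 and 242 TPM, and the non-repaired limbs of pigs 017 and 023 had 5.94 and 1.81 TPM. Reads of ribosomal protein genes can be shared with near-identical copies, so its level is uncertain.

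For several of these genes the values of both limbs of pig 017 stand side by side here. LOC100737768 had 133 TPM in its Hya-repaired and 117 TPM in its non-repaired limb, against 2.49 TPM in pig 016, 0.299 and 14.8 TPM in the sham limbs and 2.09 TPM in the non-repaired limb of pig 023. SLA-1, a class I antigen presentation gene whose reads can be shared with near-identical family members, had 144 TPM in pig 016, and 1.20 and 6.8 TPM in the Hya-repaired and non-repaired limbs of pig 017. SLA-DRB1, of class II, had 1.14 TPM in pig 016 and 55.3 and 90.2 TPM in the limbs of pig 017. LOC100623913 had 507 TPM in pig 016 and 38.5 and 48.7 TPM in the limbs of pig 017, against 513 and 330 TPM in the sham limbs and 593 to 1313 TPM in the ECM-repaired limbs. Over all 1991 genes that differed at least 2-fold between the Hya-repaired limbs, the non-repaired limb of pig 017 was nearer to the Hya-repaired limb of the same pig in 847 (42.5%). With 1 Hya-repaired limb a pig, differences between pigs and between limbs cannot be told apart.

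The remaining genes high in pig 016 included ANXA8, a membrane-binding annexin, with 265 TPM in pig 016 and 38.7 TPM in pig 017 against 0.871 and 2.77 TPM, which rose in the group by 5.59 ± 0.89 (SE, limma adjusted p = 0.00052). ANXA8 passed the filter through the Hya-repaired limbs alone. KLHDC4 had 311 and 29.4 TPM against 22 and 19.9 TPM, and CHODL, a membrane lectin, had 78.8 and 9.24 TPM against 4.20 and 5.75 TPM. Neither passed in the group (adjusted p = 0.129 and 0.0914), and in both pig 017 stood nearer to the sham limbs than pig 016. LOC106504372 had 86.6 and 1.08 TPM and is listed at 0 in both sham limbs.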

How the data were processed

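RNA-seq was carried out on 12 limbs of 11 pigs. The authors pseudoaligned reads to the pig genome with kallisto and deposited TPM for 11506 gene names, with DESeq also named in the processing notes. No coordinates are printed, and TPM keep no read depth. The labels give an average depth for the study but none per library. Dates stood in place of 21 names, which were dropped, and 618 of 1833 LOC names were given a symbol from RefSeq gene tables. There were 239 genes at 0 in every library.

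Genes with at least 1 TPM in both Hya-repaired or both sham-operated limbs were kept (8420). Values were transformed as log2(TPM + 0.5) and fitted over all 12 libraries by limma 3.58.1 (R 4.3.3), using a mean-variance trend and robust eBayes moderation and 1 coefficient for each group, or with each Hya-repaired limb as its own group. P was adjusted over all tested genes by Benjamini and Hochberg's method, with a threshold of 0.05. Rescaled values were TPM times a factor per library from log ratios trimmed by 30%, and abundance by 5%. Shares used all named genes. The method was tested on simulated data. The alternatives tried were other scalings, pseudocounts of 0.1 and 1, other filters, limma without trend, fewer libraries and each limb left out. Counts per list without single limbs were added after seeing the data. The labels call the replicates biological, and no 2 libraries held identical values.

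The genes named were, by rule, the 10 largest rises and 10 largest falls past the threshold on both scales, above the median mean level of 11.2 TPM and not overlapping between groups, the first 3 genes and the 2 of smallest p of each list, 8 genes highest in each Hya-repaired limb over the other, and all hyaluronan genes. The text gives those of them that its results turn on, some genes that the rule names are not reported here, and other genes are said to be chosen after their values were seen. The members and the gene lists were chosen with earlier results of these data known. No sequences were used here.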

Additional observations from a re-analysis of the deposited data

How the results depend on the processing

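Counts of genes moved with scaling and with single limbs. Genes higher in the Hya-repaired group numbered 2950, but 1455 without the 50 top sham genes, 1736 with only the 4 Hya and sham libraries, and 1287 to 3414 with each limb left out. Genes lower numbered 356, but 1618 rescaled by trimmed means, 1612 by median of ratios, 1698 without the 50 top genes, 226 with 4 libraries, and 13 to 785 with each limb left out. For pig 016, genes higher became 2221, 2223 and 1420 and genes lower 1978, 1973 and 1989 under the 3 scalings in that order, and genes lower ran from 479 to 529 with a sham limb left out. For pig 017, genes higher became 588 without the 50 top genes and 577 to 1342 with a sham limb left out, and genes lower 249, 245 and 52 under the scalings and 2 to 6 with a sham limb left out. On the rescaled values, leaving out each limb gave 940 to 2220 higher and 251 to 1977 lower. The cause was not tested, beyond that scalings remove the shift of all genes. Of 90 named genes called as deposited, 63 kept direction and call under every alternative run.

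Under scaling, differences changed sign for PECAM1 (-0.19, -0.18 and -0.46 in that order), EGR1 (-0.29, -0.29 and -0.56), HYAL2 (-0.51, -0.50 and -0.77) and, without the 50 top genes, HABP4 (-0.16), and with a pseudocount of 1 for PPIB (0.21). With single limbs left out, the log2 differences ran from -7.11 to 0.23 for RPS3, -0.61 to 5.8 for SLA-1, -3.40 to 0.30 for LOC100623913, -3.88 to 3.50 for PPIB, -4.69 to 0.98 for PDK4, -0.23 to 5.26 for LOC100737768, -5.08 to 0.08 for MYL3, -3.74 to 1.34 for SLA-DRB1, -3.99 to 0.47 for ABRA, -1.45 to 0.17 for NDUFA1, -0.06 to 0.90 for PECAM1, -2.46 to 0.52 for ADIPOQ, -2.15 to 0.70 for PLIN1, -0.15 to 0.77 for EGR1, -3.09 to 0.07 for TRIM63, -0.88 to 1.04 for HYAL2, -1.56 to 0.53 for ITIH4 and -3.77 to 0.52 for MYO9A. None of these genes was called in the group as deposited.

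No paired analysis was possible because no pig gave both a Hya-repaired and a sham limb. With 2 limbs a group and no read counts, small differences and low genes cannot be resolved.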
